A study of Mus musculus with 6 samples.

Results

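The glutathione, thioredoxin and antioxidant genes described here were the protein-coding rows of the deposited table whose symbols belong to the glutathione transferases, peroxidases and glutamate-cysteine ligase, the peroxiredoxins, thioredoxins and glutaredoxins, the superoxide dismutases and catalase, the methionine sulfoxide reductases, the selenoproteins, NRF2 (Nfe2l2) with its quinone reductases and heme oxygenases, and the metallothioneins and ferritins. They were chosen by symbol and not by their values, and they numbered 85 of the 14774 genes in the table. The mouse tumor Leydig line MA-10, with wild type Star (3 libraries), was compared with STARKO1 cells (3 libraries), which are MA-10 cells whose Star gene was disrupted with CRISPR/Cas9. Both cell lines were untreated and grown normally, and total RNA was sequenced. STARKO1 is 1 clone grown from a single sorted cell, so loss of Star and any other property of that clone cannot be told apart. The labels do not say whether the 3 libraries of a cell line came from separate cultures, and p-values measure only the spread between these libraries.

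Leydig cells make steroids with cytochrome P450 enzymes, which leak electrons and so produce superoxide and hydrogen peroxide as they work. Superoxide dismutases turn superoxide into hydrogen peroxide, which catalase, glutathione peroxidases and peroxiredoxins then remove. The last of these groups draw their electrons from glutathione or from thioredoxin, both of which are recharged with NADPH by their own reductases. NRF2 is the transcription factor that raises many of these genes under oxidative or electrophilic stress, through antioxidant response elements in their promoters, while metallothioneins respond to metals through metal response elements.

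A library is named below by its cell line and replicate number. Levels are in CPM, the count relative to a library size scaled by the trimmed mean of M values (TMM), and a log2 fold change is STARKO1 against MA-10, so a negative value means a lower level in STARKO1. The total count was between 14114351 and 19530062 per library. Star, the targeted gene, had 60.9, 109 and 61.4 CPM in the MA-10 libraries and 2.06, 2.71 and 2.02 CPM in the STARKO1 libraries (log2 fold change -5.09, adjusted p = 0.00121 with edgeR's quasi-likelihood test). The MA-10 libraries differed among themselves. Across 8538 genes, Pearson's r of log2 CPM was 0.802 and 0.874 between MA-10 replicate 1 and MA-10 replicates 2 and 3, 0.974 between MA-10 replicates 2 and 3, and between 0.949 and 0.955 for MA-10 replicate 1 with the STARKO1 libraries. Of all counts, 7SL RNA took 1.81%, 14.4% and 6.63% in the MA-10 libraries and 1.82% to 2.37% in STARKO1. Ribosomal protein genes took 4.61%, 8.62% and 7.78%, and 4.23% to 4.41%. In these shares MA-10 replicate 1 was near the STARKO1 libraries, and MA-10 replicates 2 and 3 stood apart from both. Many results below are also given without MA-10 replicate 1, a choice made after the libraries had been compared. That fit rests on MA-10 replicates 2 and 3 alone, the libraries with the high shares. Which MA-10 libraries are typical of the cell line cannot be told.

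Leydig cell identity was checked with 12 markers, of which 11 were in the table, with summed levels of 2155 to 2859 CPM in the MA-10 libraries and 1740 to 1821 CPM in STARKO1. Star and Hsd3b1 (log2 fold change -2.52) were lower, and the other 9 did not pass the test. Cyp19a1 was not listed. Defining markers of other testis cells were not listed in the table, among them Sox9 and Amh of Sertoli cells, Adgre1 and Ptprc of macrophages, Dazl and Prm1 of germ cells, Vwf of endothelial cells and Acta2 of peritubular myoid cells. Of the other markers, the endothelial cadherin Cdh5 was higher (log2 fold change 1.84) and Des was lower (-3.0) in STARKO1. The listed endothelial markers, 2 of 5, summed to 26.4 to 41.5 CPM in MA-10 and 118 to 124 CPM in STARKO1, and the listed myoid markers, 2 of 5, to 13.0 to 20.5 CPM and 1.72 to 2.59 CPM. The summed range was 337 to 529 and 574 to 597 CPM for 3 of 9 Sertoli markers, 4.86 to 9.85 and 6.37 to 8.56 CPM for 2 of 9 macrophage markers, and 2.20 to 3.55 and 1.91 to 2.83 CPM for 1 of 7 germ cell markers. Their part in the results below was not tested. In bulk RNA, fewer cells with a transcript and less of it per cell cannot be told apart.

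Promoters were read because the NRF2 and metal responses act through short DNA elements, and a shared element is a feature that the choice by symbol did not use. RefSeq promoter windows (build GRCm38.p6), each with 250 bases before and 50 bases after a transcription start, were found for 74 of the 85 genes, which had 99 windows. The antioxidant response element core was searched as TGACNNNGC on both strands, and it overlaps the AP-1 element when the letters read TGACTCAGC. It was present in 15 of the 99 windows (15.2%) and in 12.4% of all 32851 windows. The metal response element core, searched as TGCACNC or TGCGCNC on both strands, was present in 27 of the 99 windows (27.3%) and in 25.7% of all windows; its TGCGC letters also occur in the site of nuclear respiratory factor 1. Both shares of the antioxidant genes' windows were thus near those of promoters in general. By gene, 15 of the 74 with a window had an antioxidant response element core, and 25 of the 74 had a metal response element core. Of the 10 genes called between the cell lines, 8 had a window. The antioxidant response element core was present in 2 of these 8, Gsta3 and Srxn1. The metal response element core was present in 4 of them, Srxn1, Txnip, Gstt1 and Selenom. Srxn1 is not shown. Its antioxidant response element core lies after the start, and its metal response element core, on the opposite strand, begins 19 bases before the start. The 4 stretches shown here belong to genes that passed the test between the cell lines, with the matched letters in capitals. In Gsta3 (chr1:21240439-21240497, plus strand) they are an antioxidant response element core, and in Txnip (chr3:96557724-96557780, plus strand), Gstt1 (chr10:75797778-75797834, minus strand) and Selenom (chr11:3514596-3514652, plus strand) a metal response element core. Each is written 5′ to 3′ along the gene's strand, with the first capital 121, 208, 78 and 63 bases before the RefSeq start.
Gsta3: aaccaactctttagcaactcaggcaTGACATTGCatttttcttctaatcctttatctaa
Txnip: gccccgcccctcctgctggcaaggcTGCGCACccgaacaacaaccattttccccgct
Gstt1: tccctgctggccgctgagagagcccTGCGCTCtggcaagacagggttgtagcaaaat
Selenom: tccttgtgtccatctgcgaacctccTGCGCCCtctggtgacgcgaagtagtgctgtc
These matches are a description of letters, and binding to them was not measured.

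Of the 85 genes, 81 had enough counts to be tested, and 10 were called by edgeR's quasi-likelihood test, with a threshold of 0.05 on the p adjusted over all 11939 genes tested. Across all genes tested, 9.04% were called. Ferritin light chain (Ftl1), catalase (Cat), the γ-glutamyltransferase Ggt5, the thioredoxin-binding protein Txnip, the glutathione transferases Gstt1 and Gsta3, the selenoproteins Selenos and Selenom, and sulfiredoxin (Srxn1) were lower in STARKO1. These 9 stand beside a background of 4.74% lower genes. The extracellular superoxide dismutase Sod3 was the 1 gene that was higher, beside a background of 4.30%. The number called in either direction was therefore near what the whole table gives, while the number lower was above it. The median log2 fold change was -0.53 over the 81 genes and -0.05 over all genes tested, and 67 of the 81 (82.7%) had a value below 0, against 52.9% of all genes. Scaled by library size alone, the medians were -0.00 and 0.38, so the first one moved to about 0, and 41 of the 81 were below 0. The number below the median of all genes was 67 with TMM and 65 with library size alone. Before adjustment, 42 of the 81 had a p under 0.05, beside a background of 37.6% of all genes. DESeq2 called 32 of the 81, beside a background of 28.5%. Counts of these 2 kinds in the small groups below are read against these shares.

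Without regard to the test, all 3 STARKO1 libraries lay below all 3 MA-10 libraries for 37 of the 81 genes (background 21.0%) and above them for 4 (background 21.5%), and the cell lines overlapped for 40. For 62 of the 81 genes (76.5%), MA-10 replicate 1 was nearer to the STARKO1 mean than to the mean of MA-10 replicates 2 and 3, as it was for 69.8% of all genes. The median log2 difference of STARKO1 from MA-10 replicate 1 was -0.14 over the 81 genes, and from MA-10 replicates 2 and 3 together it was -0.68. Without MA-10 replicate 1, 58 of the genes were called, 49 lower (background 31.7%) and 9 higher (background 34.0%), and these included all 10 genes called with the 6 libraries. Without MA-10 replicate 2, 6 of the 10 were called. Without MA-10 replicate 3, or without any 1 of the 3 STARKO1 libraries, only Ggt5 was called among these genes, and the number called over the whole table was then between 89 and 181. The scaling and the filter also decided calls. With library size alone, 4 of the 10 were called (Ggt5, Cat, Ftl1 and Sod3), with upper quartile scaling all but Gsta3 and Srxn1, without a filter on low counts all but the same 2, and with at least 10 counts in every library all but these 2 and Selenos.

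The genes were shorter than most, with a median exon length of 2820 bases against 4200.5 bases for all genes tested. The difference between MA-10 replicates 2 and 3 and MA-10 replicate 1 ran with exon length, with a Spearman correlation of -0.40 across the 81 genes and -0.19 across all genes, which share the same libraries. When each library's trend with exon length was entered as an offset, 11 of the genes were called, beside a background of 10.4%. They included 9 of the 10, all but Srxn1, and the endoplasmic reticulum thioredoxin Txndc12 and the thioredoxin reductase Txnrd3 were added.

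**Figure D1:**
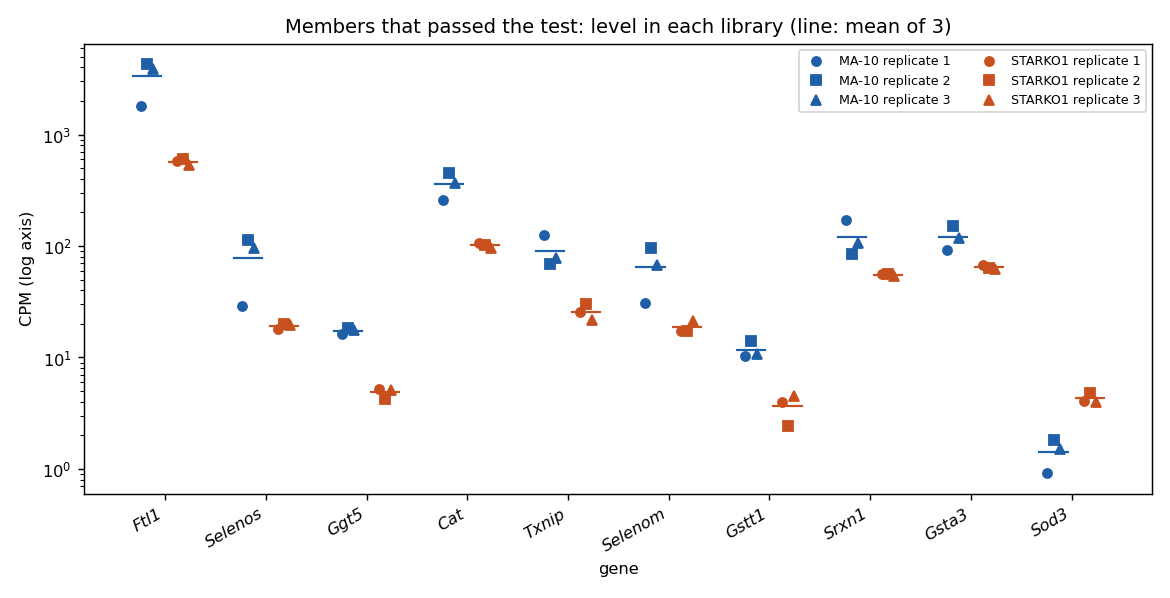
CPM on a log axis in each of the 3 MA-10 (blue) and 3 STARKO1 (orange) libraries for the 10 antioxidant genes that passed the test, in order of log2 fold change, with the mean of 3 libraries as a line and a marker shape for each replicate number. The libraries of the cell lines do not overlap for any of the 10 genes, which choosing genes that passed the test favours. MA-10 replicate 1 is the MA-10 library nearest to STARKO1 for all of the 10 but Txnip, Srxn1 and Sod3, where it is the farthest.

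Glutathione is made by glutamate-cysteine ligase, whose catalytic and modifier subunits are Gclc and Gclm, and by glutathione synthetase, Gss. It is recycled by glutathione reductase, Gsr, and taken apart outside the cell by γ-glutamyltransferases. Of these 5 genes, 1 was called, Ggt5, which acts on glutathione conjugates such as leukotriene C4. Ggt5 (chromosome 10 of GRCm38, 75589340 to 75617201, plus strand) had 16.3, 18.4 and 17.5 CPM in the MA-10 libraries and 5.20, 4.24 and 5.11 CPM in the STARKO1 libraries. The 3 MA-10 libraries were close together and all above STARKO1. The level was 3.58-fold higher in MA-10 cells, with a log2 fold change of -1.84 (SE 0.172, adjusted p = 0.00354, edgeR's quasi-likelihood test). Ggt5 was called whichever of the 6 libraries was left out, with an adjusted p of at most 0.0413.

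The enzymes of glutathione synthesis and recycling did not pass the test. Gclc had 75.9, 44.2 and 51.7 CPM in MA-10 and 46.2, 45.4 and 42.3 CPM in STARKO1 (log2 fold change -0.36, SE 0.225), and only MA-10 replicate 1 stood well apart. Gclm had 84.0, 78.1 and 89.8 CPM and then 70.0, 67.3 and 65.1 CPM (-0.32, SE 0.143), without overlap. Gsr had 146, 120 and 125 CPM and then 120, 126 and 126 CPM (-0.07, SE 0.156), and Gss had 65.5, 50.8 and 59.9 CPM and then 60.3, 56.8 and 61.6 CPM (0.02, SE 0.158). The cell lines overlapped in Gsr and in Gss. Per kilobase of exon, Gsr was the highest of the group at 47.3 ± 5.03 CPM per kilobase in MA-10 and 45.1 ± 1.27 in STARKO1 (SD, n = 3).

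Glutathione transferases join glutathione to reactive compounds, including lipid peroxidation products such as 4-hydroxynonenal, for which Gsta4 is specialized. Of 15 soluble transferases tested, Gstt1 and Gsta3 were lower in STARKO1, none was higher, and 14 had a log2 fold change below 0. Their median was -0.86, and it was -0.34 with library size alone, where 10 of the 15 were below 0. Gstt1 (chromosome 10, 75783813 to 75798585, minus strand), a theta-class enzyme, had 10.4, 14.1 and 10.8 CPM in MA-10 and 4.0, 2.42 and 4.55 CPM in STARKO1. All MA-10 libraries were above all STARKO1 libraries, and the gene was 3.22-fold higher in MA-10 (log2 fold change -1.68, SE 0.281, adjusted p = 0.0211, edgeR's quasi-likelihood test). Gsta3 (chromosome 1, 21240589 to 21265662, plus strand), an alpha-class enzyme, had 92.0, 150 and 117 CPM in MA-10 and 67.3, 63.5 and 62.7 CPM in STARKO1. Here MA-10 replicate 1 was the nearest to STARKO1, and the log2 fold change was -0.89 (SE 0.209, adjusted p = 0.0470, edgeR's quasi-likelihood test). When libraries were left out in turn, both calls held without MA-10 replicate 1, and without any of the other 5 the adjusted p ran up to 0.115 for Gstt1 and 0.210 for Gsta3. With library size alone both calls were lost (adjusted p = 0.0936 and 0.186), and that of Gsta3 was also lost with upper quartile scaling (0.0565), no filter (0.0561) and at least 10 counts in every library (0.0526).

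The most abundant transferases were high in MA-10 replicates 2 and 3 alone. Gsta4 had 732 CPM in MA-10 replicate 1, then 2275 and 1493 CPM in MA-10 replicates 2 and 3, and 865, 829 and 864 CPM in STARKO1 (log2 fold change -0.81, SE 0.405, adjusted p = 0.182). Replicate 1 was thus below every STARKO1 library. The alpha-class genes Gsta1 and Gsta2 and the microsomal transferase Mgst1, an enzyme of the endoplasmic reticulum and mitochondrial membranes that also reduces lipid peroxides, were named after their values were seen, although Mgst1 is also the most abundant of its group. Gsta2 had 306, 1676 and 1115 CPM in MA-10 and 272, 281 and 249 CPM in STARKO1 (adjusted p = 0.0676), and Gsta1 had 22.6, 183 and 99.6 CPM and then 30.9, 30.1 and 30.6 CPM (adjusted p = 0.105). Mgst1 had 205, 1010 and 728 CPM and then 197, 205 and 207 CPM (log2 fold change -1.68, SE 0.529, adjusted p = 0.0783). In each of these the first MA-10 library was at or near the STARKO1 level. Without MA-10 replicate 1, 11 of the 15 soluble transferases and both microsomal ones tested were called lower (background 31.7%). Gstt2 was the 1 called higher (background 34.0%).

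Gpx4, the selenium-dependent peroxidase that reduces phospholipid hydroperoxides in membranes and protects against ferroptosis, was the most abundant glutathione peroxidase. It had 204, 540 and 401 CPM in MA-10 and 175, 179 and 178 CPM in STARKO1 (log2 fold change -1.11, SE 0.347, adjusted p = 0.0770, edgeR's quasi-likelihood test). The libraries did not overlap, but MA-10 replicate 1 lay close to STARKO1. With 6 libraries, edgeR called 0 of the 3 peroxidases tested, with 1 at an unadjusted p under 0.05, and DESeq2 called Gpx4. Without MA-10 replicate 1, edgeR called 2 lower (background 31.7%). The 4 glutaredoxins, a family in which some members reduce protein disulfides with glutathione, also gave 0 calls with edgeR. Of them, 2 had an unadjusted p under 0.05 and 2 were called by DESeq2. The most abundant, Glrx3, a carrier of iron-sulfur clusters, had 125, 265 and 292 CPM in MA-10 and 110, 120 and 116 CPM in STARKO1 (log2 fold change -0.98, SE 0.321, adjusted p = 0.0829).

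Peroxiredoxins reduce hydrogen peroxide with a reactive cysteine that becomes overoxidized at high peroxide levels, and sulfiredoxin, Srxn1, restores it. Srxn1 (chromosome 2, 152105516 to 152111377, plus strand) had 171, 85.4 and 106 CPM in MA-10 and 56.0, 55.6 and 53.7 CPM in STARKO1. Unlike most of the genes, it was highest in MA-10 replicate 1, and all MA-10 libraries were above STARKO1. The log2 fold change was -1.13 (SE 0.269, adjusted p = 0.0483, edgeR's quasi-likelihood test). The call held without MA-10 replicate 1 or without MA-10 replicate 2, was lost without any 1 of the other 4 libraries (adjusted p up to 0.207), and was also lost with exon length offsets (adjusted p = 0.0668), upper quartile scaling (0.0846), library size alone (0.255), no filter (0.0639) and at least 10 counts in every library (0.0589).

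Among the 6 peroxiredoxins, edgeR called none with 6 libraries and DESeq2 called Prdx1 and Prdx6. All had a log2 fold change below 0 with TMM, of which Prdx2, Prdx3 and Prdx5 were above 0 with library size alone. Prdx1, the abundant cytosolic form, had 428, 2653 and 2038 CPM in MA-10 and 380, 384 and 403 CPM in STARKO1 (log2 fold change -2.13, SE 0.613, adjusted p = 0.0667, edgeR's quasi-likelihood test). Only MA-10 replicates 2 and 3 stood apart. For Prdx2 to Prdx6 the log2 fold change ran from -0.77 (Prdx6, SE 0.237) to -0.12 (Prdx2, SE 0.233). The peroxiredoxins and sulfiredoxin together took 0.161%, 0.328% and 0.299% of the protein-coding counts in the MA-10 libraries and 0.139% to 0.142% in STARKO1.

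**Figure D2:**
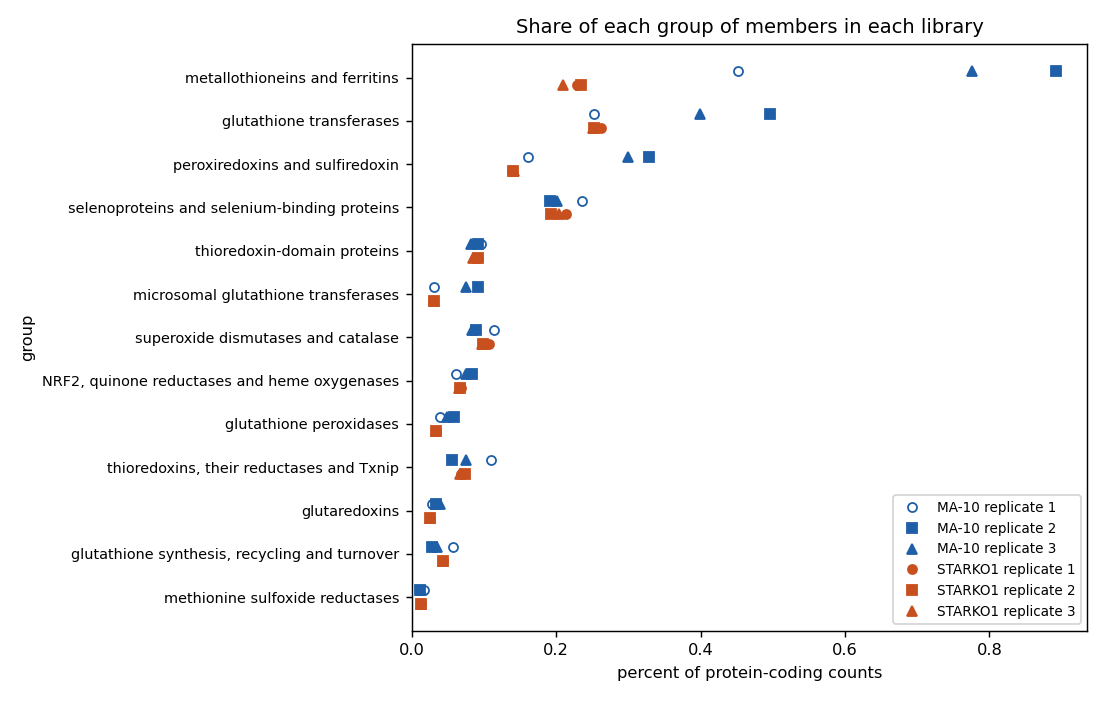
Share of all protein-coding counts, in percent, taken by each of 13 groups of antioxidant genes in each library (MA-10 blue, with replicate 1 as an open marker, and STARKO1 orange). Metallothioneins and ferritins took 0.451%, 0.892% and 0.776% in the MA-10 libraries, the largest share there, and 0.209% to 0.235% in STARKO1, where glutathione transferases took more in each library (up to 0.262%), and the STARKO1 libraries nearly coincide in every group.

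In the thioredoxin system, Txnip, which binds and inhibits reduced thioredoxin and limits glucose uptake, was the 1 gene called among 6. Txnip (chromosome 3, 96557957 to 96561884, plus strand) had 125, 68.5 and 77.6 CPM in MA-10 and 25.6, 30.1 and 21.5 CPM in STARKO1. All 3 MA-10 libraries were above STARKO1, with replicate 1 the farthest from it. Txnip was 3.51-fold higher in MA-10 (log2 fold change -1.81, SE 0.276, adjusted p = 0.0152, edgeR's quasi-likelihood test). The call held without MA-10 replicate 1 or 2 and was lost without any 1 of the other 4 libraries, where the adjusted p was between 0.0634 and 0.114. It was also lost with library size alone (adjusted p = 0.110).

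Thioredoxin itself, Txn1, had 128, 190 and 162 CPM in MA-10 and 104, 103 and 102 CPM in STARKO1 (log2 fold change -0.64, SE 0.189, adjusted p = 0.0706, edgeR's quasi-likelihood test), with no overlap. The cytosolic reductase Txnrd1, also an NRF2-responsive gene, had 431, 254 and 408 CPM and then 276, 303 and 275 CPM (-0.36, SE 0.245, adjusted p = 0.307), and the cell lines overlapped. Txnrd3, a thioredoxin and glutathione reductase best known from testis and named after its values were seen, had 13.4, 11.0 and 10.9 CPM in MA-10 and 18.8, 20.5 and 17.1 CPM in STARKO1. All STARKO1 libraries were above MA-10, and its log2 fold change of 0.67 (SE 0.169) had an adjusted p of 0.0546 with TMM and 0.0495 with exon length offsets.

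Of 11 thioredoxin-domain proteins, 0 were called by edgeR, with 4 at an unadjusted p under 0.05 and 2 called by DESeq2. The most abundant per kilobase was Txndc12, with 71.4, 200 and 132 CPM in MA-10 and 51.2, 53.2 and 49.3 CPM in STARKO1 (log2 fold change -1.39, SE 0.356, adjusted p = 0.0564, edgeR's quasi-likelihood test). Txndc17, a cytosolic disulfide reductase named after its values were seen, had 20.8, 104 and 78.1 CPM and then 21.0, 20.6 and 21.5 CPM (-1.68, SE 0.526, adjusted p = 0.0768). Txndc12 did not overlap between the cell lines, whereas in Txndc17 replicate 1 of MA-10 lay inside the STARKO1 range.

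Catalase and the extracellular superoxide dismutase moved in opposite directions. Cat (chromosome 2, 103453849 to 103485161, minus strand), the peroxisomal enzyme that splits hydrogen peroxide into water and oxygen, had 258, 453 and 366 CPM in MA-10 and 107, 101 and 96.5 CPM in STARKO1. The lowest MA-10 library was above the highest STARKO1 library, and Cat was 3.53-fold higher in MA-10 (log2 fold change -1.82, SE 0.245, adjusted p = 0.0102, edgeR's quasi-likelihood test). Sod3 (chromosome 5, 52363791 to 52371419, plus strand), which is secreted and bound to the extracellular matrix, had 0.916, 1.82 and 1.5 CPM in MA-10 and 4.04, 4.83 and 3.99 CPM in STARKO1. Its level was low in every library, all STARKO1 libraries were above MA-10, and the log2 fold change was 1.62 (SE 0.310, adjusted p = 0.0292). Both calls held without MA-10 replicate 1 or 2 and were lost without any 1 of the other 4 libraries, where the adjusted p was at most 0.0920 for Cat and 0.152 for Sod3.

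The intracellular superoxide dismutases did not pass the test. The cytosolic Sod1 had 435, 369 and 295 CPM in MA-10 and 508, 472 and 465 CPM in STARKO1 (log2 fold change 0.39, SE 0.211, adjusted p = 0.208, edgeR's quasi-likelihood test), with every STARKO1 library above MA-10. The mitochondrial Sod2 had 91.7, 183 and 159 CPM and then 116, 108 and 116 CPM (-0.35, SE 0.266, adjusted p = 0.347). In Sod2 the STARKO1 libraries fell between MA-10 replicate 1 and the other MA-10 libraries. Per kilobase, Sod1 was at 92.2 in MA-10 and 121 in STARKO1, well above Sod2 at 14.5 and 11.3. Part of this gap comes from the annotated exon lengths, 3970 bases for Sod1 and 10008 bases for Sod2.

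Among 12 selenoproteins and selenium-binding proteins, 2 were called, and both are proteins of the endoplasmic reticulum. Selenos (chromosome 7, 66079649 to 66089406, plus strand), which takes part in the removal of misfolded proteins, had 28.8, 112 and 95.1 CPM in MA-10 and 17.9, 20 and 19.6 CPM in STARKO1. Selenom (chromosome 11, 3514684 to 3517352, plus strand), a thioredoxin-like protein, had 31.0, 95.6 and 67.0 CPM in MA-10 and 17.4, 17.4 and 21.3 CPM in STARKO1. In both, MA-10 replicate 1 was above STARKO1 but nearer to it than to the other MA-10 libraries. The log2 fold change was -2.04 for Selenos (SE 0.472, adjusted p = 0.0457) and -1.79 for Selenom (SE 0.393, adjusted p = 0.0411, edgeR's quasi-likelihood test). When libraries were left out in turn, both calls held only without MA-10 replicate 1, and without any of the other 5 the adjusted p was between 0.0804 and 0.191. Both were also lost with library size alone (adjusted p = 0.0780 for Selenos and 0.0687 for Selenom), and Selenos with at least 10 counts in every library (0.0518).

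Selenok, another endoplasmic reticulum selenoprotein, which binds Selenos and was named after its values were seen, had 68.0, 348 and 233 CPM in MA-10 and 55.6, 63.4 and 55.0 CPM in STARKO1 (log2 fold change -1.90, SE 0.535, adjusted p = 0.0649, edgeR's quasi-likelihood test). The libraries did not overlap. Selenop, the secreted selenium carrier and the most abundant of the group per kilobase, had 1104, 1133 and 1140 CPM in MA-10 and 1010, 866 and 980 CPM in STARKO1 (-0.24, SE 0.201, adjusted p = 0.393). Its MA-10 libraries were nearly equal, in contrast to most other genes here. Over the 12 genes the median log2 fold change was -0.31, and it was 0.13 with library size alone.

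The 3 methionine sulfoxide reductases, which repair oxidized methionine in proteins, gave 0 calls by edgeR, with 2 at an unadjusted p under 0.05 and 1 called by DESeq2. Msrb1, itself a selenoprotein, was the most abundant of them and had 23.8, 45.9 and 40.0 CPM in MA-10 and 24.1, 19.5 and 21.7 CPM in STARKO1 (log2 fold change -0.75, SE 0.262, adjusted p = 0.0939, edgeR's quasi-likelihood test). Here MA-10 replicate 1 fell within the STARKO1 range.

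Nfe2l2, which encodes NRF2, had 181, 575 and 399 CPM in MA-10 and 202, 215 and 201 CPM in STARKO1 (log2 fold change -0.90, SE 0.396, adjusted p = 0.145, edgeR's quasi-likelihood test). MA-10 replicate 1 was below every STARKO1 library, and the other MA-10 libraries were above them. The quinone reductase Nqo1, a widely used NRF2 readout, had 48.0, 81.4 and 80.0 CPM and then 39.9, 38.1 and 44.2 CPM (-0.78, SE 0.234, adjusted p = 0.0727), without overlap. Heme oxygenase 1, Hmox1, which frees iron from heme and is repressed by BACH1, had 66.2, 110 and 117 CPM and then 90.3, 87.9 and 76.8 CPM (-0.20, SE 0.241, adjusted p = 0.554), with overlap. None of the 5 genes of this group was called by edgeR with 6 libraries, 2 had an unadjusted p under 0.05, and DESeq2 called 1.

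**Figure D3:**
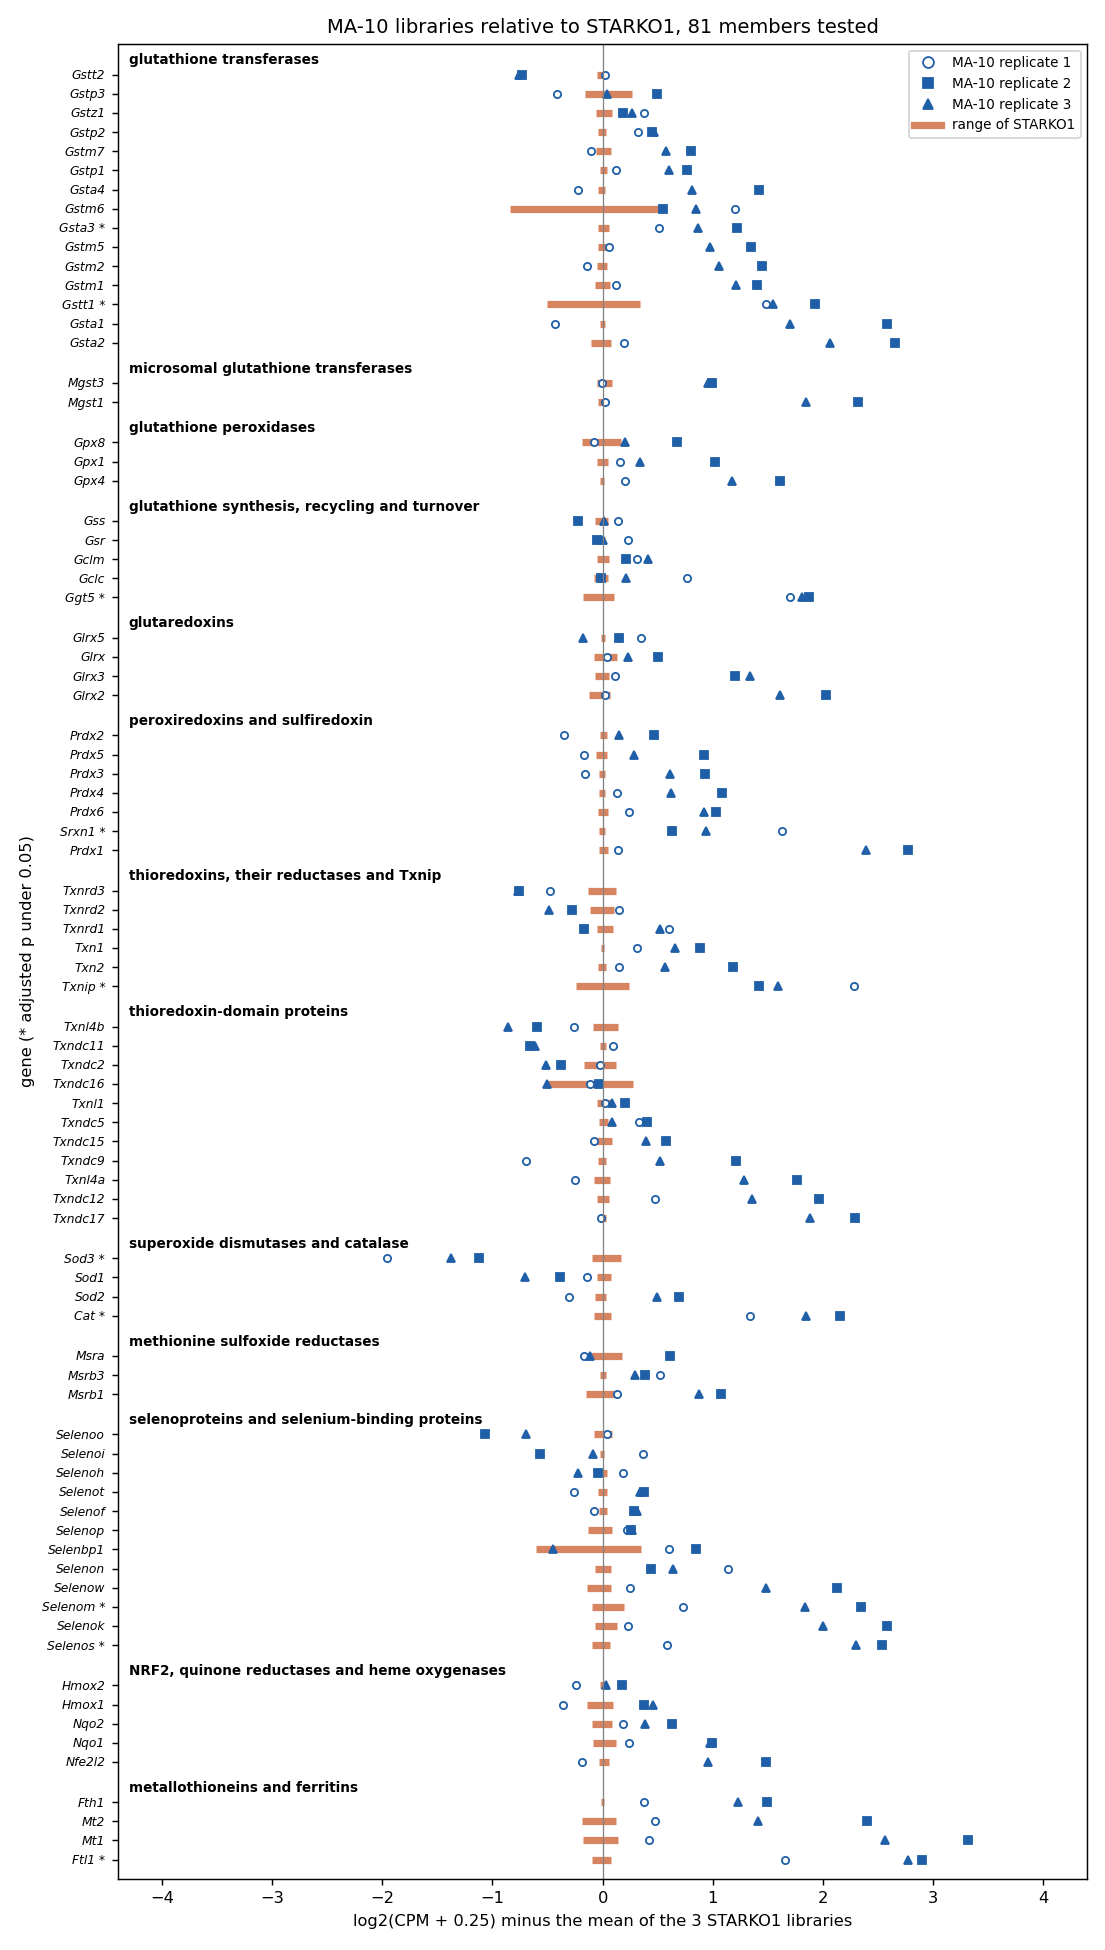
Level of each MA-10 library relative to the mean of the 3 STARKO1 libraries, as a difference of log2(CPM + 0.25), for the 81 antioxidant genes tested, by group. The orange bar is the range of the STARKO1 libraries, the open circle is MA-10 replicate 1, the filled markers are MA-10 replicates 2 and 3, and an asterisk marks the 10 genes that passed the test. The filled markers lie far to the right of the open circle for some genes, among them Gsta1, Gsta2, Mgst1, Prdx1, Selenok and Mt1. For others they lie less far to the right, as for Prdx2 to Prdx6, or to the left, as for Gstt2, Gclc and Selenoo. MA-10 replicate 1 was nearer to the STARKO1 mean than to the other MA-10 libraries for 62 of the 81 genes.

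The genes that hold metals took the largest share of counts in the MA-10 libraries, though not in STARKO1, and 1 of the 4, Ftl1, was called. Ferritin stores iron in a shell of light and heavy chains, and metallothioneins bind zinc and copper through cysteines. Ftl1 (chromosome 7, 45457944 to 45459885, minus strand) had 1792, 4253 and 3904 CPM in MA-10 and 577, 603 and 534 CPM in STARKO1. Every MA-10 library was well above every STARKO1 library, and the light chain was 5.81-fold higher in MA-10, the largest log2 fold change of the 81 genes at -2.54 (SE 0.381, adjusted p = 0.0147, edgeR's quasi-likelihood test). The call held without MA-10 replicate 1 or 2 and was lost without any 1 of the other 4 libraries, with an adjusted p between 0.0710 and 0.117.

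The heavy chain, Fth1, had 621, 1352 and 1124 CPM in MA-10 and 485, 478 and 476 CPM in STARKO1 (log2 fold change -1.11, SE 0.313, adjusted p = 0.0657, edgeR's quasi-likelihood test). Mt1 had 496, 3706 and 2201 CPM and then 382, 409 and 328 CPM (-2.52, SE 0.667, adjusted p = 0.0600), and Mt2 had 188, 713 and 358 CPM and then 141, 147 and 118 CPM (-1.63, SE 0.464, adjusted p = 0.0658). None of these 3 overlapped between the cell lines, but MA-10 replicate 1 lay close to STARKO1 in each, and edgeR called none of them with 6 libraries, whereas DESeq2 called all 3. Without MA-10 replicate 1, all 4 genes of the group were called lower in STARKO1 (background 31.7%).

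Levels of different genes were compared per kilobase of exon, with the length taken as the union of all annotated exons of a gene. This union can be longer than the main transcript. For Mt1 it was 1246 bases, nearly the whole locus (chromosome 8, 94179082 to 94180328). The order of genes given here depends on these lengths. Ftl1 was the highest of the 85 genes in MA-10 at 2475 ± 994 CPM per kilobase (SD, n = 3), followed by Mt1 at 1713 ± 1289 and Gsta4 at 1185 ± 609, whose order is within their spread. In STARKO1 the highest was Gsta4 at 674 ± 16.2, above Ftl1 at 426 ± 25.7 and Selenop at 335 ± 26.7, and Mt1 followed at 299 ± 33.0. The spread between libraries was far larger in MA-10 than in STARKO1 for nearly all of these genes. Of the 85 genes, 27 had a deposited value more than 0.05 away from a whole number, which is what dividing reads between similar sequences gives. Ftl1, Fth1, Prdx1, Gpx4 and several Gsta, Gstm and Gstp genes were among them. Cat was barely past this limit, at 4156.05 counts in MA-10 replicate 3. How the reads of these genes were divided could change their values.

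**Figure D4:**
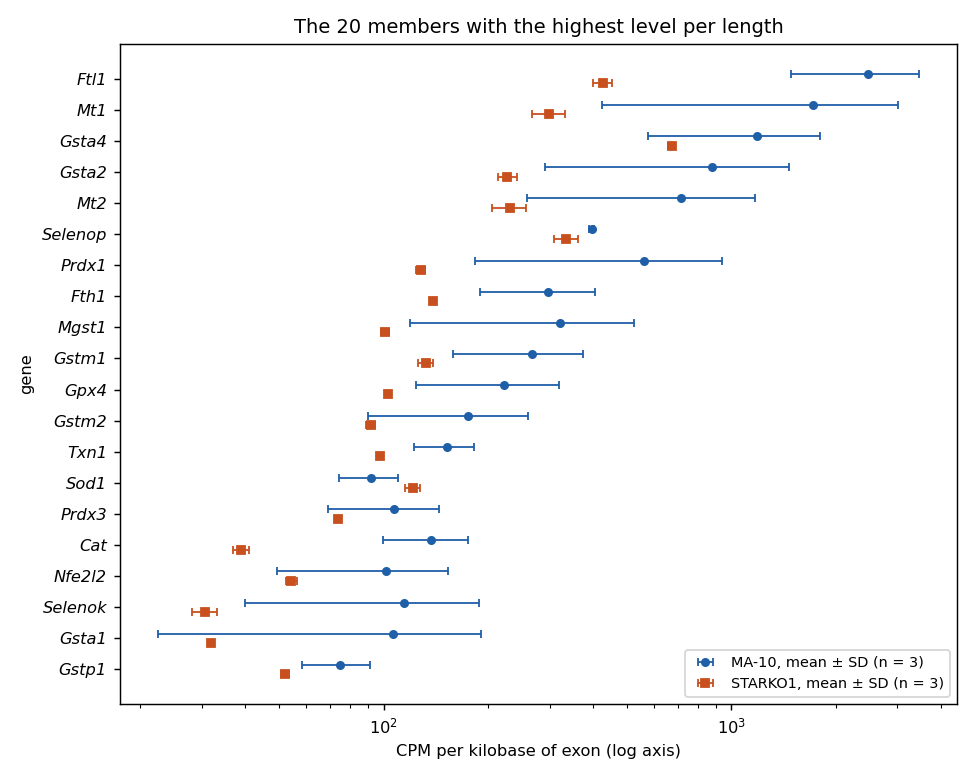
Mean ± SD over 3 libraries of CPM per kilobase of exon, on a log axis, in MA-10 (blue circles) and STARKO1 (orange squares) for the 20 antioxidant genes with the highest level over all 6 libraries. Ftl1, Mt1 and Gsta4 lead in MA-10, and Gsta4 leads in STARKO1. The MA-10 error bars are wide for many genes but narrow for Selenop (396 ± 6.64), and less wide for some others such as Sod1 (92.2 ± 17.7).

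Iron handling was read in a list of 10 genes outside the antioxidant set, of which 1 was higher and 1 lower in STARKO1. Across all genes tested, 4.30% were higher and 4.74% lower, and calls in each list outside the antioxidant set are read against these shares. The median log2 fold change of the 10 genes was 0.40 (0.83 with library size alone). The transferrin receptor Tfrc, which brings iron into the cell, had 73.5, 51.6 and 63.4 CPM in MA-10 and 219, 198 and 217 CPM in STARKO1. Ferroportin, Slc40a1, the iron exporter, had 18.2, 22.9 and 24.7 CPM in MA-10 and 5.08, 5.72 and 5.11 CPM in STARKO1. The libraries of the cell lines were far apart in both genes, including MA-10 replicate 1, with a log2 fold change of 1.75 for Tfrc (SE 0.190, adjusted p = 0.00551) and -2.05 for Slc40a1 (SE 0.188, adjusted p = 0.00335, edgeR's quasi-likelihood test). When libraries were left out in turn, Slc40a1 was called 6 times of 6 and Tfrc 4 times, with an adjusted p of at most 0.0516. As background, iron regulatory proteins bind transcripts of ferritin, ferroportin and the transferrin receptor and set their translation or stability by the iron level of the cell, which was not measured here.

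Cysteine limits the rate of glutathione synthesis, and 18 genes of its supply and of glutathione breakdown were tested. Of these, 3 were lower (background 4.74%) and 2 higher (background 4.30%). The median log2 fold change of the 18 genes was -0.33 (0.18 with library size alone). Slc7a11, the cystine importer that is also an NRF2-responsive gene, had 74.6, 69.1 and 68.8 CPM in MA-10 and 43.7, 40.4 and 42.5 CPM in STARKO1 (log2 fold change -0.75, SE 0.139, adjusted p = 0.0270). Cth, which makes cysteine from cystathionine, had 71.6, 84.1 and 85.8 CPM and then 35.7, 36.8 and 41.6 CPM (-1.08, SE 0.157, adjusted p = 0.0138). In both, the 3 MA-10 libraries were close together and above STARKO1. Slc25a39, the mitochondrial glutathione importer, was also lower (-1.39, SE 0.263, adjusted p = 0.0280, edgeR's quasi-likelihood test).

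Mat2a, which makes S-adenosylmethionine from methionine, had 21.7, 17.5 and 12.1 CPM in MA-10 and 66.6, 67.4 and 76.9 CPM in STARKO1. All STARKO1 libraries were far above MA-10 (log2 fold change 2.04, SE 0.240, adjusted p = 0.00714, edgeR's quasi-likelihood test). The aminopeptidase Anpep, which cleaves the dipeptide left from glutathione, was higher as well, at 1.83, 1.21 and 1.32 CPM against 3.53, 4.89 and 4.49 CPM (1.54, SE 0.278, adjusted p = 0.0256). When libraries were left out in turn, Mat2a was called 5 times of 6, Slc7a11, Cth and Slc25a39 each 2 times (without MA-10 replicate 1 or 2), and Anpep 1 time (without MA-10 replicate 1), with an adjusted p of at most 0.184 over these genes.

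Of 11 NRF2 regulators and partners tested, 1 was lower (background 4.74%) and 1 higher (background 4.30%). Bach1, the repressor that competes with NRF2 at antioxidant response elements, had 32.3, 29.1 and 29.9 CPM in MA-10 and 19.7, 18.7 and 17.5 CPM in STARKO1 (log2 fold change -0.71, SE 0.145, adjusted p = 0.0353). Dpp3, a peptidase that binds KEAP1, the inhibitor of NRF2, had 63.0, 41.5 and 44.2 CPM and then 90.2, 99.1 and 98.3 CPM (0.95, SE 0.201, adjusted p = 0.0373, edgeR's quasi-likelihood test). Neither overlapped between the cell lines, and when libraries were left out in turn each was called only without MA-10 replicate 1 (adjusted p of at most 0.198). Of 21 NRF2-responsive genes outside the antioxidant set, 2 were lower and none was higher, beside the same backgrounds. The 2 were Slc7a11 and the UDP-glucose dehydrogenase Ugdh (-1.45, SE 0.329, adjusted p = 0.0439, edgeR's quasi-likelihood test). When libraries were left out in turn, Ugdh was called only without MA-10 replicate 1. The median log2 fold change was -0.38 over the regulators and -0.19 over the responsive genes, and both turned positive (0.08 and 0.20) with library size alone.

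**Figure D5:**
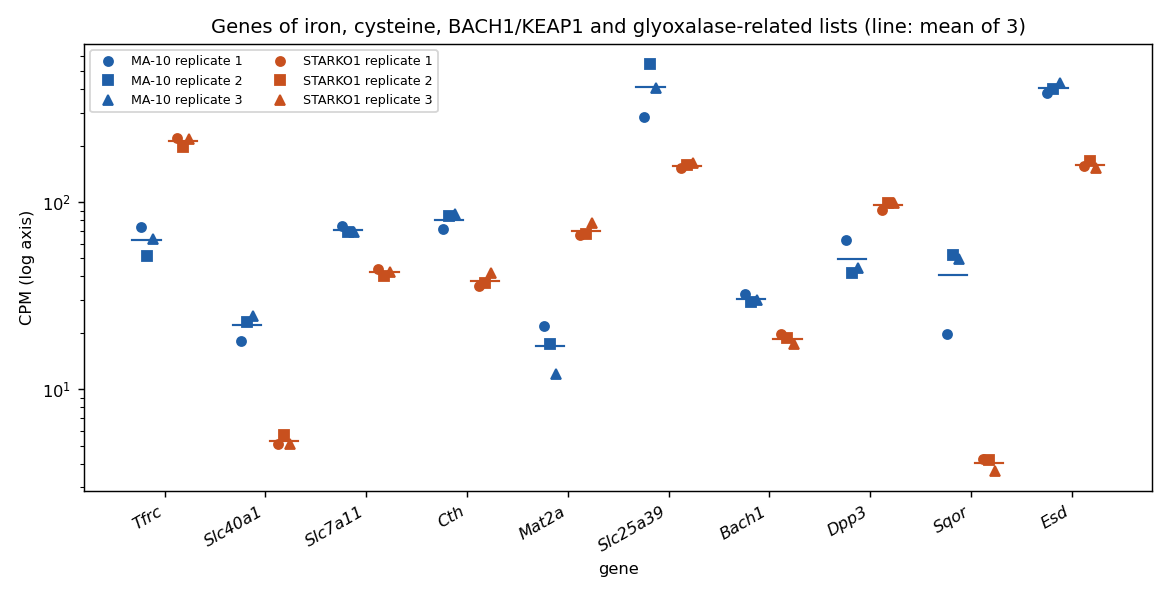
CPM on a log axis in each MA-10 (blue) and STARKO1 (orange) library for 10 genes of iron handling (Tfrc, Slc40a1), cysteine and glutathione supply (Slc7a11, Cth, Mat2a, Slc25a39), NRF2 regulation (Bach1, Dpp3) and partners of glutathione (Sqor, Esd) that passed the test, with lines at the mean of 3 libraries. In all 10 the libraries of the cell lines do not overlap, which choosing genes that passed the test favours, as it does a small spread between libraries. Across all genes tested, STARKO1 lay below MA-10 without overlap for 21.0% and above it for 21.5%.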

How the data were processed

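Total RNA of MA-10 (3) and STARKO1 (3) libraries was sequenced after preparation with a stranded total RNA kit. The deposited values are estimated counts per gene made by the authors, not normalized and with replicates kept apart. Per the submitters' processing notes, STAR 2.6.1d, Partek and mm10 were used; the counting options are not given in the sources used here, nor whether counting used strand, so reads of overlapping antisense genes cannot be told apart. A gene with reads divided between similar sequences keeps that division.

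The 85 genes and all lists were chosen with earlier results of these data known. Counts were rounded and fitted over the whole table with edgeR 4.0.16 in R 4.3.3 (filterByExpr, TMM, quasi-likelihood test, Benjamini-Hochberg adjustment over all genes tested, threshold 0.05), without a replicate block. SE is the log2 fold change divided by the square root of F. Exon lengths are the union of all exons of a gene in the GENCODE annotation of GRCm38, matched for 85 of 85 genes. Depth was between 14114351 and 19530062 counts per library, so that 3 counts, the level of 1 library's floor, equal at most 0.264 CPM, for counting error only. The spread between libraries limits the precision more than depth does.

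Named genes were every called gene, the most abundant gene of each group per kilobase, a list of 18 well-known antioxidant genes, and the called genes of the other lists; others are said to be named after their values were seen. Alternatives were DESeq2 1.42.0, upper quartile scaling, library size alone, a replicate block, no filter on low counts, a minimum of 10 counts in every library, other thresholds and leaving out each library. Exon length offsets and MA-10 replicate 1 set apart came after the values were known. The scripts were tested on simulated counts. Python 3.11.15, pandas 2.3.3, numpy 2.4.6 and matplotlib 3.10.9 were used for tables and figures.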

Additional observations from a re-analysis of the deposited data

How the results depend on the processing

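The 10 calls rest on few libraries and depend on the fit. Over all genes, 1079 were called (513 higher, 566 lower). DESeq2 called 3395 (1312 higher, 2083 lower) and library size alone 330 (210 higher, 120 lower), where 63.6% of the calls were higher against 47.5% with TMM. Upper quartile scaling gave 368 lower genes, and at least 10 counts in every library gave 695 calls, 348 of them lower. Leaving out 1 library gave between 89 and 7990 calls, 47 to 4133 higher and 39 to 3857 lower. The most came without MA-10 replicate 1 and the fewest without STARKO1 replicate 1. Of the antioxidant genes, DESeq2 called 32 (2 higher, 30 lower) and library size alone 4 (3 lower). Leaving out 1 library gave 1 to 58 calls, 0 to 9 higher and 1 to 49 lower. Exon length offsets gave 2 higher genes, beside 602 of 11868 over the whole table. An adjusted p under 0.1 gave 33 of the antioxidant genes. The share of all genes at that threshold was not taken, so whether 33 is unusual cannot be told. The median log2 fold change of the antioxidant genes was -0.0010 with library size alone, which moved the median of all genes by 0.43. Upper quartile scaling moved the median of all genes by 0.15, and leaving out MA-10 replicate 1 by 0.11. Relative to the median of all genes, the median of the 81 genes was -0.48 with TMM, -0.45 with upper quartile scaling and -0.38 with library size alone.

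Same-numbered libraries did not deviate together (correlations of -0.0165, 0.0455 and 0.0201), and the main fit had no replicate block. The labels do not say whether libraries of the same number were made together, and these correlations cannot decide it. With the replicate block, 234 genes were called (106 higher, 128 lower), and 3 antioxidant genes, 0 higher and 3 lower, which were Ggt5, Cat and Txnip.

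No called gene changed direction in any of these fits. Genes that were not called did, and not only those near 0. With TMM 67 of the 81 genes were below 0, with upper quartile scaling 61 and with library size alone 41. Prdx3, for example, had -0.53 with TMM and 0.010 with library size alone. The genes listed next are further examples. Gsr had 0.070 with upper quartile scaling, 0.34 with library size alone, 0.038 with exon length offsets and -0.12 to 0.11 when 1 library was left out. With library size alone, Selenop had 0.20, Gclm 0.12, Hmox1 0.31, Txnrd1 0.021 and Sod2 0.18. With exon length offsets, Hmox1 had 0.10 and Gss -0.034, and Gss had -0.075 to 0.19 when 1 library was left out. The cause of these changes was not tested.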

Other observations

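Further lists around the antioxidant genes held 6 called genes not yet described or only plotted. Of 9 glyoxalase and thioltransfer partners, 3 were lower in STARKO1 (background 4.74%) and none higher (background 4.30%). Sqor, the mitochondrial enzyme that oxidizes sulfide and passes its sulfur to glutathione, had 19.8, 52.4 and 49.4 CPM in MA-10 and 4.26, 4.19 and 3.65 CPM in STARKO1 (log2 fold change -3.32, SE 0.396, adjusted p = 0.00742, edgeR's quasi-likelihood test). Esd, which releases glutathione from its formaldehyde adduct, had 384, 401 and 434 CPM and then 156, 165 and 152 CPM (-1.37, SE 0.169, adjusted p = 0.00789), with MA-10 libraries close together. Hagh, the second enzyme of the glyoxalase pathway, was also lower (-1.09, SE 0.230, adjusted p = 0.0372). Each passed the threshold in 1 to 3 of the 6 fits that left out 1 library, with an adjusted p of at most 0.180.

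Of 10 genes of selenocysteine insertion, Trnau1ap, a partner of the selenocysteine tRNA, was the 1 called, at 51.4, 94.0 and 68.8 CPM against 33.0, 33.6 and 31.6 CPM (log2 fold change -1.13, SE 0.237, adjusted p = 0.0369, edgeR's quasi-likelihood test). Of 14 sources of superoxide and peroxide, 5 were in the table. Ero1l, the oxidase that makes disulfides and hydrogen peroxide in the endoplasmic reticulum, was lower (-1.07, SE 0.204, adjusted p = 0.0292), and the NADPH oxidases Nox1, Nox3, Nox4 and Cybb were not listed. Among 10 ferroptosis genes tested, Tfrc was higher, and Slc7a11 and the spermidine acetyltransferase Sat1 were lower. Sat1 had 194, 962 and 746 CPM in MA-10 and 92.1, 85.8 and 86.1 CPM in STARKO1 (-2.85, SE 0.558, adjusted p = 0.0314). Trnau1ap, Ero1l and Sat1 were each called in 1 of the 6 fits that left out 1 library, the one without MA-10 replicate 1.

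Of the antioxidant genes, 4 had too few counts to be tested. Mgst2, a microsomal transferase, had 14, 8 and 4 counts in the MA-10 libraries and 0 in each STARKO1 library, and Gpx7 had 4, 2 and 4 counts and then 0 in each. Gstm3 and Gstt4 were at a few counts in both cell lines. A count of 0 allows up to 3 counts per library.

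The symbols also matched 5 rows that are not protein coding and were left out. The largest, the pseudogene Gpx4-ps2, had 250, 99.0 and 116 counts in MA-10 and 248, 217 and 218 counts in STARKO1, lowest in the MA-10 libraries where Gpx4 was highest.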
